A study of Mus musculus with 16 samples.

Results

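The insulin-like growth factor (IGF) system is described here by 10 genes taken by name, of 21887 protein-coding genes that could be scored on the autosomes, X and Y. They are the ligand genes Igf1 and Igf2, the receptor genes Igf1r and Igf2r, and the binding protein genes Igfbp2, Igfbp3, Igfbp4, Igfbp5, Igfbp6 and Igfbp7. The rule uses their names alone, and all 10 were found in the gene table. The cells were satellite cells, the stem cells of skeletal muscle, from C57BL/6 mice, either activated (ASC) or quiescent (QSC), with no genetic change or agent named in the labels. Chromatin was immunoprecipitated for H3K4me3 or H3K27me3, with 2 replicates per mark and state and an input sample for each, 16 samples in all. The deposited files hold a narrow and a broad peak list per mark and state, shared by its replicates, so no difference between ASC and QSC below has a replicate check or a p-value. How the cells were isolated or activated, and how many mice were used, is not given in the sources used here, and read depth is unknown from these files.

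IGF1 and IGF2 are secreted ligands that act on the receptor tyrosine kinase IGF1R, which signals through the PI3K, Akt and mTOR route and through Ras and MAPK kinases. The receptor IGF2R carries IGF2 to lysosomes, and the binding proteins hold IGFs outside the cell and set how much ligand reaches the receptor. In muscle the system is known for promoting growth, myoblast proliferation and differentiation. H3K4me3 is found at active and poised gene starts, and H3K27me3 is the repressive mark laid down by Polycomb complexes.

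The cell label was checked at starts of marker genes. All 7 satellite cell markers (Pax7, Myf5, Cdh15, Sdc4, Itga7, Calcr and Chrdl2) had an H3K4me3 narrow peak in ASC and in QSC. Of 24 markers of other cell types, 9 had one in ASC and 8 in QSC, against 57.0% and 54.4% of all genes. In ASC and QSC they were 3 and 2 of 5 endothelial, 2 and 1 of 5 fibro-adipogenic, and 0 and 0 of 5 immune markers. They were also 2 and 3 of 5 pericyte and smooth muscle markers, and 2 and 2 of 4 Schwann cell markers. Marks of contaminating cells at the IGF genes were not tested.

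The starts of the IGF genes differ in their density of CpG, and CpG-rich starts are where H3K4 methylases and Polycomb complexes are recruited in mammals. The sequences are the 250 bases upstream of 4 starts, 5′ to 3′ on the gene's strand, in lower case with each CpG in capitals (RefSeq, GRCm38.p6, which shares coordinates with mm10). They are the most CpG-dense start among the 10 genes (Igf1r, chr7:67952007-67952256, plus strand, 42 CpGs), a start with few CpGs that carried H3K4me3 in both states (Igf1, chr10:87860861-87861110, plus strand, 5 CpGs), and the first starts of the 2 genes called for H3K4me3 in ASC and not in QSC (Igfbp2, chr1:72824230-72824479, and Igfbp6, chr15:102143936-102144185, both plus strand, with 14 and 7 CpGs).
Igf1r: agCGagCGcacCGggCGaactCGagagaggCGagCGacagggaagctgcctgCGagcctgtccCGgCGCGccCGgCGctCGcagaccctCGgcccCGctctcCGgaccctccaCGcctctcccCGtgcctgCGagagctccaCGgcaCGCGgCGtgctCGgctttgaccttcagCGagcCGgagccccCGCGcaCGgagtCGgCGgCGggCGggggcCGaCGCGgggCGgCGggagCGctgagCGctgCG
Igf1: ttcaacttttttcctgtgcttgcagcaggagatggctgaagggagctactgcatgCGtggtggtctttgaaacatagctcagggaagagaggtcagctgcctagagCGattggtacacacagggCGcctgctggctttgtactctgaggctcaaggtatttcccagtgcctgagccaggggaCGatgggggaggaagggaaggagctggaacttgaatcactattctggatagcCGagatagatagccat
Igfbp2: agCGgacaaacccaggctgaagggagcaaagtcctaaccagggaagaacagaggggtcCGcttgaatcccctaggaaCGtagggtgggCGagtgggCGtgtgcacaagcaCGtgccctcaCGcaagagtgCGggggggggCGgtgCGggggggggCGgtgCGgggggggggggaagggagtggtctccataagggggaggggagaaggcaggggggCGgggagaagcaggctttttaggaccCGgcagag
Igfbp6: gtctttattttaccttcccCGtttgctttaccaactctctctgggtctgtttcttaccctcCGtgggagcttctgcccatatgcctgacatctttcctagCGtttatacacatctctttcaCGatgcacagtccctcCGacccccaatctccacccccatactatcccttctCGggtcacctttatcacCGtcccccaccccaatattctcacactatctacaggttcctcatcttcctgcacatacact

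Every IGF gene had H3K4me3 at an annotated start in activated cells, and 8 of 10 in quiescent cells. A gene was called when a narrow peak overlapped the window of 1 kb either side of an annotated start, a rule met by 57.0% of all genes in ASC and 54.4% in QSC. The genes called in ASC and not in QSC were Igfbp2 and Igfbp6, against 3.29% of all genes, and 0 were called in QSC and not in ASC, against 0.736%. When the ASC list was shortened to the covered bases of the QSC list, strongest peaks first, 3 of the 10 genes (Igf1r, Igfbp3 and Igfbp5) were called in ASC and 8 in QSC, against 38.0% and 54.4% of all genes. The order of the states thus turned with list length for the IGF genes and for all genes. With the broad H3K4me3 lists all 10 genes were called in each state, against 62.7% of genes in ASC and 68.3% in QSC. These broad lists are unequal and mostly weak, above all in QSC. They cover 88.8 Mb in ASC, with a median -log10 q of 0.76, and 254.9 Mb in QSC, with a median of 0.

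**Figure D1:**
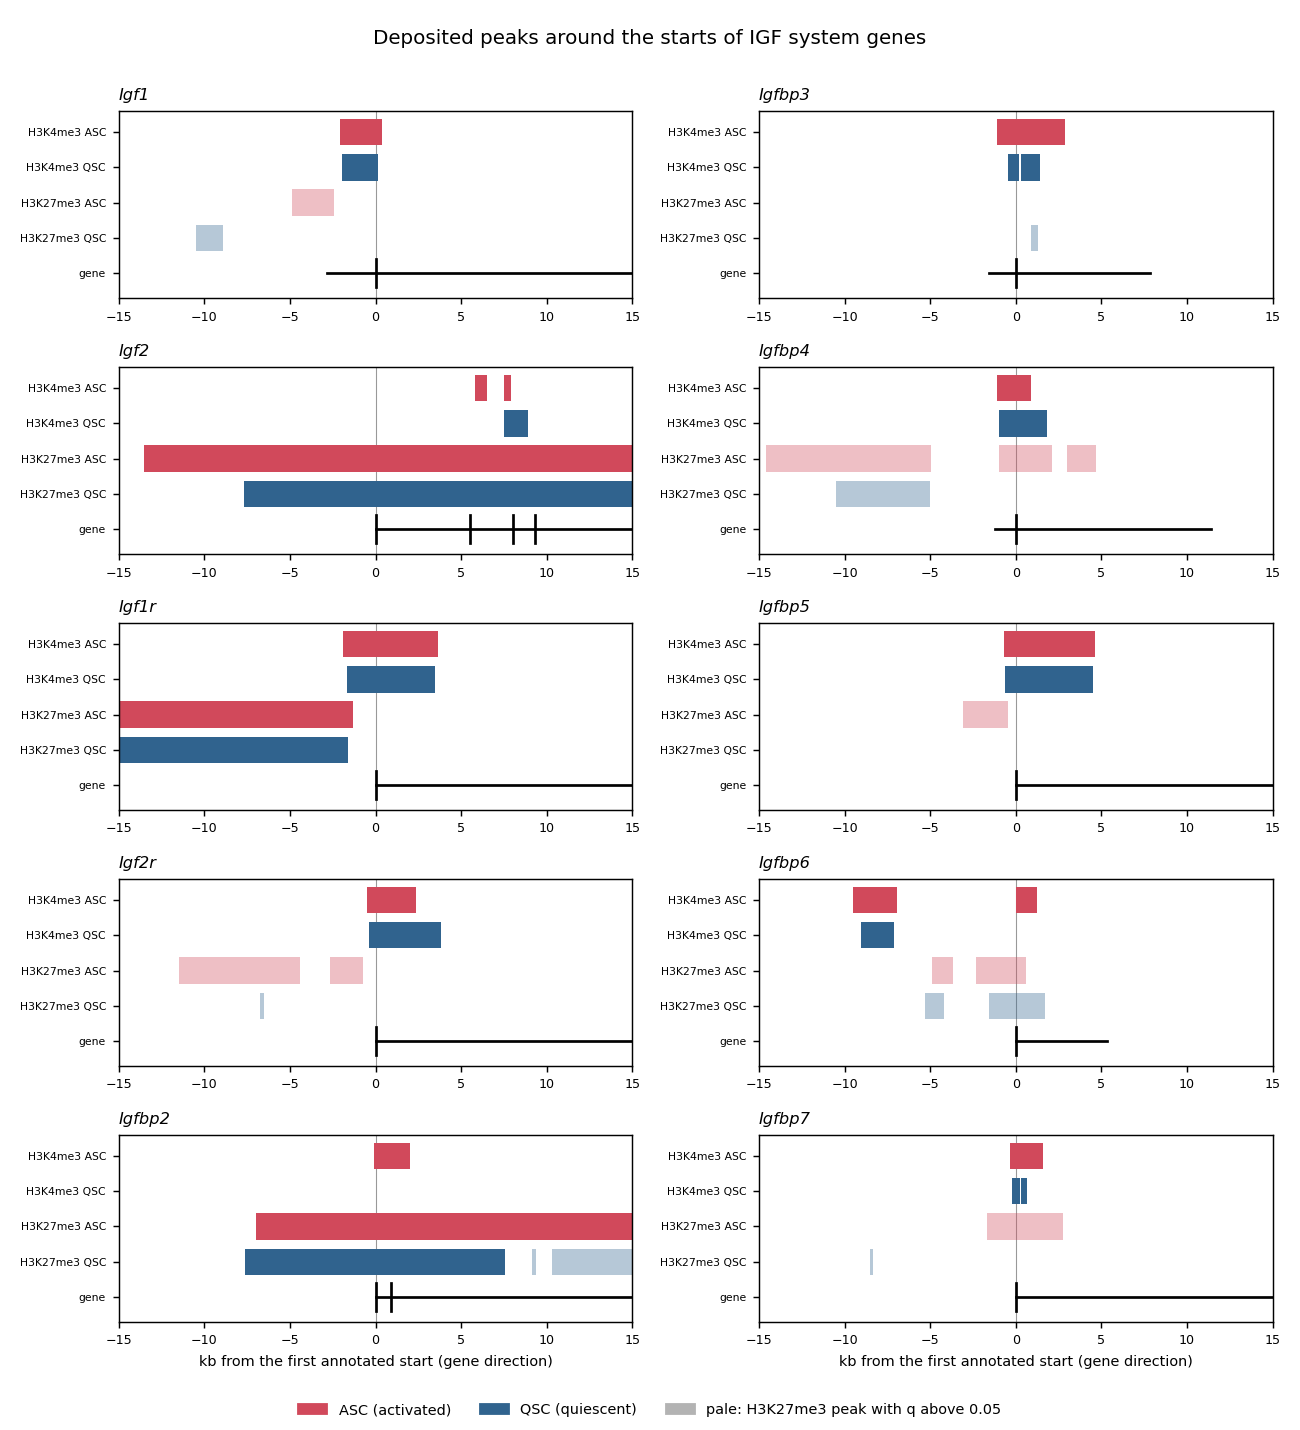
Deposited peaks within 15 kb of the first annotated start of each gene, with distance in kb on the horizontal axis and, from top to bottom, H3K4me3 narrow peaks in ASC and QSC, H3K27me3 broad peaks in ASC and QSC, and the gene record (line) with its annotated starts (ticks). H3K4me3 lies at the starts of all 10 genes in ASC, and H3K27me3 peaks with a q of at most 0.05 (full colour) lie at Igf2, Igfbp2 and upstream of Igf1r.

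Igf1, the ligand of postnatal growth, carried H3K4me3 of much the same extent in both states and no H3K27me3 at its annotated start. The gene record lies on chromosome 10, 87858265 to 87937047, plus strand, and the annotated start is at 87861111. The narrow peak measured 2477 bp in ASC and 2077 bp in QSC. It reached from 2069 bp upstream to 407 bp downstream of the start in ASC, and from 1953 bp upstream to 123 bp downstream in QSC, so the mark lay mostly upstream. Its fold enrichment over background was 12.5 in the ASC list and 8.71 in the QSC list, higher than 39.5% and 39.0% of the peaks of those lists. Folds are the authors' own value for a peak and serve only to place it in its list, not to compare states. A weak H3K27me3 broad peak of 2469 bp lay 2414 bp upstream of the start in ASC (fold 1.76, -log10 q 0.46), and in QSC the nearest lay 8892 bp upstream (fold 1.78, -log10 q 0.26). The ASC peak covers the end of the gene record, which begins 2846 bp upstream of the annotated start. With windows at both record ends in place of annotated starts, Igf1 was called for H3K27me3 in ASC and not in QSC. Neither narrow H3K27me3 list had a peak within 10 kb of the record.

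Igf2, the fetal ligand, which is imprinted and expressed from the paternal allele in most tissues, was the gene most covered by H3K27me3. Its record spans chromosome 7, 142650768 to 142666816, minus strand, with 4 annotated starts, numbered here in the direction of transcription. Broad H3K27me3 peaks covered 86.4% of the record plus 10 kb either side in ASC and 82.0% in QSC, more than in 94.5% and 95.2% of all genes. The main peak measured 30420 bp in ASC (fold 4.04, -log10 q 7.68) and 23486 bp in QSC (fold 3.33, -log10 q 3.19), and in each state it held all 4 starts. In ASC it also covered the record of Ins2, the neighbouring insulin gene, which the QSC peak did not reach.

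H3K4me3 at Igf2 was short and lay inside the broad H3K27me3 peak in each state. In ASC there was a peak of 368 bp ending 116 bp upstream of start 3 (fold 5.60) and one of 715 bp beginning 260 bp downstream of start 2 (fold 2.89, higher than 0.195% of the list). In QSC a single peak of 1444 bp covered start 3 (fold 5.89). No narrow H3K4me3 peak touched the window of start 1 in either state. Starts 2 and 3 had CpG ratios of 0.79 and 0.90, and starts 1 and 4 had 0.10 and 0.25, where the ratio is CpGs observed over expected in 300 bases around a start. Igf2 was the single IGF gene with both marks at a start in QSC, with H3K27me3 called from the broad lists.

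The microRNA gene Mir483, which lies within the Igf2 record, was also under the H3K27me3 domain in each state. Its mature products are shown to mark this embedded locus, with the seed (bases 2 to 8) in capitals. They lie on chromosome 7, minus strand, at 142654968 to 142654989 (5p) and 142654932 to 142654952 (3p).
mmu-miR-483-5p: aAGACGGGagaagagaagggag
mmu-miR-483-3p: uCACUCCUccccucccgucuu

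Igf1r, the signalling receptor, had the longest H3K4me3 domain of the IGF genes in ASC and lacked H3K27me3 within 1 kb of its start. The record covers chromosome 7, 67952257 to 68233668, plus strand. The domain at the start measured 5511 bp in ASC and 5091 bp in QSC, longer than at 94.9% and 97.7% of the genes marked in each state. Its folds were 32.3 in ASC and 24.7 in QSC, higher than 89.1% and 98.7% of the peaks of those lists. The start is CpG-dense, with a CpG ratio of 1.11, above 97.6% of 21263 annotated starts.

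Upstream of Igf1r the chromatin carried H3K27me3, which ended close to where H3K4me3 began. The broad peak measured 39472 bp in ASC (fold 4.87, -log10 q 10.2) and 59688 bp in QSC (fold 3.50, -log10 q 3.51), and it stopped 1319 bp upstream of the start in ASC and 1612 bp in QSC. In the narrow lists H3K27me3 ended 2083 bp upstream of the start in ASC and 1629 bp in QSC, and H3K4me3 began 1877 bp upstream in ASC and 1644 bp in QSC. The narrow peaks of the 2 marks thus left a short gap in ASC and just met in QSC. The broad H3K27me3 peak, however, overlapped the narrow H3K4me3 peak in each state, and more so in ASC. With windows of 2.5 kb around the start, Igf1r was called for H3K27me3 in both states.

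Inside the long Igf1r record, further H3K4me3 narrow peaks lay far from the annotated start. A peak of 2235 bp in ASC and 2122 bp in QSC began 176148 bp and 176084 bp downstream of the start, with folds of 17.5 and 8.71. A weaker peak of 1055 bp, 204939 bp downstream, was listed in ASC (fold 4.15) and covered an end of the long noncoding RNA record Gm51487. The QSC narrow list had no peak there.

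Igf2r, which clears IGF2 and in mice is expressed mainly from the maternal allele, had a shorter H3K4me3 domain at its start in ASC than in QSC. Its record spans chromosome 17, 12682406 to 12769706, minus strand. The domain measured 2864 bp in ASC and 4204 bp in QSC, a log2 ratio of -0.55. The folds were 9.21 in ASC and 10.4 in QSC. A stronger peak lay inside the gene, 3195 bp long in ASC and 3086 bp in QSC. Its fold was 20.8 in ASC, higher than 61.2% of the list, and 15.7 in QSC, higher than 81.5%. This inner peak began 25622 bp and 25513 bp downstream of the Igf2r start. It covered the end of the record of Airn at 12741311. Airn is the long noncoding RNA, made from the paternal allele, that silences Igf2r in cis. These files do not separate alleles.

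Igf2r had more bases under broad H3K27me3 peaks in ASC, all of them weak peaks. Covered bases within the record and its flanks were 15590 in ASC, in 7 peaks, and 220 in QSC, in 1 peak. The highest fold was 1.95 in ASC and 1.85 in QSC, and the highest -log10 q was 0.80 in ASC and 0.33 in QSC. The narrow lists held 1 peak in ASC, of 468 bp and 1522 bp upstream of the start (fold 2.76), and 0 in QSC. The ASC peak nearest the start lay 706 bp upstream and put 295 bp in the start window, under the 500 bp that counted as a call.

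**Figure D2:**
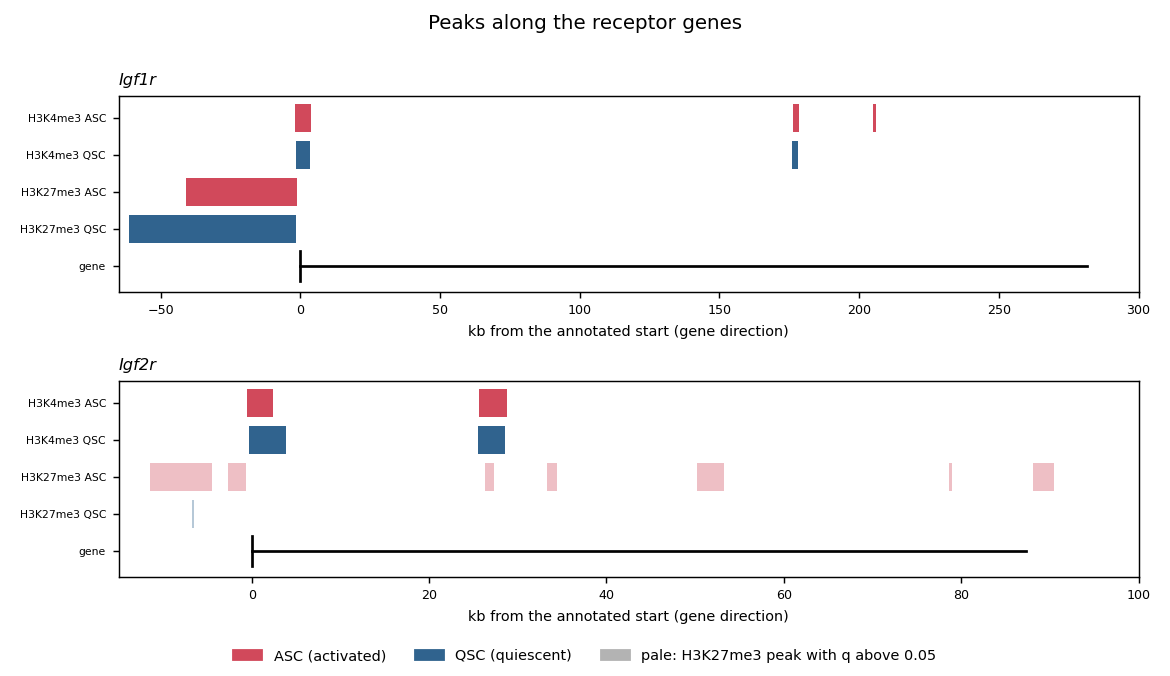
Peaks along Igf1r and Igf2r, with distance from the annotated start in kb on the horizontal axis and rows as for the maps of the starts. At Igf1r an H3K27me3 domain ends upstream of the start, near the upstream edge of the H3K4me3 peak that covers the start, and Igf2r shows a further H3K4me3 peak from 25.6 kb in ASC and 25.5 kb in QSC.

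Among the binding proteins, Igfbp2, which binds IGF2 with preference, had H3K27me3 in both states and an H3K4me3 narrow peak in ASC and none in QSC. Its record lies on chromosome 1, 72824480 to 72852474, plus strand, with 2 annotated starts. The ASC H3K4me3 peak measured 2091 bp, began 78 bp upstream of the first start and had a fold of 8.67 and a -log10 q of 29.2. At that site the QSC broad list held a peak of 2125 bp with a fold of 1.77 and a -log10 q of 0.092, so the QSC lists hold weak enrichment there. The H3K27me3 broad peak over the starts measured 23170 bp in ASC (fold 2.41, -log10 q 1.99) and 15189 bp in QSC (fold 2.58, -log10 q 1.55). In the narrow lists H3K27me3 covered 961 bp of the window of start 1 in ASC and 0 bp in QSC, and 1803 bp of that of start 2 in ASC and 303 bp in QSC.

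Igfbp6, another binding protein that prefers IGF2, also had an H3K4me3 narrow peak at its start in ASC and none in QSC. The record lies on chromosome 15, 102144186 to 102149512, plus strand. The ASC peak measured 1244 bp, began 15 bp downstream of the start and had a fold of 5.78, higher than 15.8% of its list. In QSC the broad list held a peak of 2812 bp there, with a fold of 1.74 and a -log10 q of 0.068. Broad H3K27me3 peaks over the start measured 2940 bp in ASC (fold 1.77, -log10 q 0.48) and 3269 bp in QSC (fold 2.13, -log10 q 0.72), and neither narrow list held H3K27me3 near the gene. The H3K4me3 peaks upstream, present in both states, cover an end of the neighbouring gene Spryd3.

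Igfbp3, the main carrier of IGFs in blood, and Igfbp7, a related protein with low affinity for IGFs, had H3K4me3 domains that were longer in ASC by a log2 ratio above 1. At Igfbp3 (chromosome 11, 7206086 to 7215498, minus strand) the domain measured 3959 bp in ASC and 1855 bp in QSC, a log2 ratio of 1.09. The ASC domain was a single peak with a fold of 20.6, and the QSC domain consisted of peaks of 1089 and 674 bp with folds of 6.05 and 8.95. At Igfbp7 (chromosome 5, 77349240 to 77408045, minus strand) it measured 1890 bp in ASC and 877 bp in QSC, a log2 ratio of 1.11. The ASC peak there had a fold of 8.85, and the QSC peaks, of 337 and 441 bp, had folds of 5.32 and 3.77. With the broad H3K4me3 lists the log2 ratio at Igfbp3 was 0.41, and with no joining of peaks it was 1.86. Without joining, the longest peak at the Igfbp7 start was 1890 bp in ASC and 441 bp in QSC. Leaving out peaks whose -log10 q was under 5 gave a log2 ratio of 2.49 at Igfbp7, and with the ASC list shortened to equal covered bases Igfbp7 had no H3K4me3 call in ASC. A further H3K4me3 peak inside the Igfbp7 record measured 1486 bp in ASC and 990 bp in QSC, 49136 bp and 49201 bp downstream of the start.

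The same genes differed in weak H3K27me3 peaks. Igfbp3 had 0 bp under broad H3K27me3 peaks in ASC and 453 bp in QSC (fold 1.83, -log10 q 0.33), and no narrow peak of that mark. Igfbp7 had 8695 bp in ASC and 195 bp in QSC, and the ASC peak of 4395 bp covered its start. That peak was weak, with a fold of 1.80 and a -log10 q of 0.53. With a q of at most 0.05, both genes had 0 bp under broad H3K27me3 peaks in each state.

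Igfbp4 and Igfbp5 were called for H3K4me3 in both states. Igfbp5, a binding protein made by differentiating myoblasts (chromosome 1, 72858065 to 72874865, minus strand), had a domain of 5299 bp in ASC and 5123 bp in QSC, longer than at 93.9% and 97.8% of marked genes. Its folds were 19.1 in ASC and 13.8 in QSC, higher than 57.1% and 71.5% of the peaks of those lists. Its start is not CpG-rich, with 10 CpGs in 300 bases and a CpG ratio of 0.42. Igfbp4, an inhibitory binding protein cleaved by the protease Pappa (chromosome 11, 99040005 to 99052655, plus strand), had a domain of 1995 bp in ASC and 2828 bp in QSC. Its folds of 8.13 and 7.77 were higher than 25.8% and 33.9% of the peaks of those lists.

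Both had weak H3K27me3 at the start in ASC and none in QSC. At Igfbp4 a broad peak of 3076 bp covered the start in ASC (fold 1.88, -log10 q 0.63), and coverage of the record and flanks was 44.4% in ASC and 16.9% in QSC, the widest difference among the 10 genes. The narrow lists held a peak of 914 bp in ASC, 7660 bp upstream of the start, and 0 in QSC. At Igfbp5 the ASC peak of 2591 bp ended 479 bp upstream of the start (fold 2.01, -log10 q 0.94) and put 522 bp in the window, just over the 500 bp required. Igfbp2 and Igfbp5 are convergent neighbours, and their windows share an ASC peak of 2224 bp and a QSC peak of 1326 bp near the end of Igfbp2.

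H3K4me3 domains of the IGF genes were longer in ASC at some genes and shorter at others. Of the 8 genes marked in both states, 5 had the longer domain in ASC, against 90.8% of all 11755 such genes. The domain was shorter in ASC at Igf2, Igf2r and Igfbp4, against 9.21% of all genes. At Igf2 the lengths compared belong to different sites, a peak of 715 bp near start 2 in ASC and one of 1444 bp over start 3 in QSC. At Igf2 the order turned when peaks were joined over gaps of up to 3 kb, with a log2 ratio of 0.53. The median log2 ratio of ASC over QSC was 0.08 for the 8 genes and 0.54 for all genes. In the broad lists, domains were shorter in ASC at 4 of the 10 genes, against 37.4% of all genes, so the contrast with other genes rests on the narrow lists. The ASC narrow list covers more of the genome, 35.4 Mb against 24.4 Mb in QSC. The broad lists are unequal the other way, with 88.8 Mb in ASC and 254.9 Mb in QSC.

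**Figure D3:**
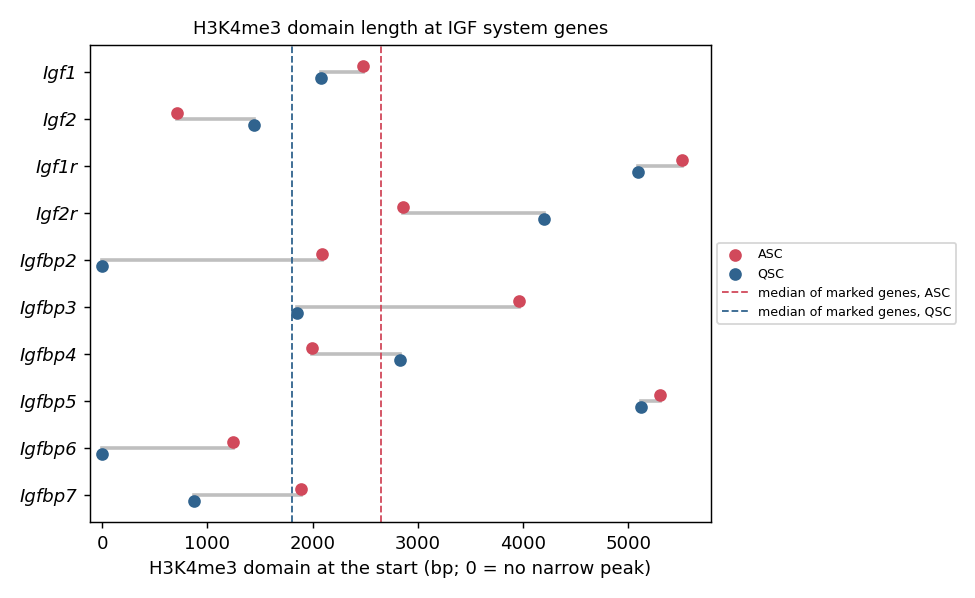
Length of the longest H3K4me3 domain at a start (narrow peaks joined over gaps of up to 1 kb) for each gene in ASC and QSC, on a horizontal axis in bp where 0 means no narrow peak. Dashed lines are the medians of all marked genes, 2655 bp in ASC and 1809 bp in QSC, and Igf1r and Igfbp5 have the longest domains in ASC and in QSC, from 5091 to 5511 bp.

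H3K27me3 was called at the starts of 6 IGF genes in ASC and 3 in QSC. A call needed broad peaks over at least 500 bp of the start window, which 30.0% of all genes met in ASC and 24.9% in QSC. The genes were Igf2, Igfbp2 and Igfbp6 in both states, and Igfbp4, Igfbp5 and Igfbp7 in ASC and not in QSC, against 7.68% of all genes. Called in QSC and not in ASC were 0 genes, against 2.56%. All 6 also had H3K4me3 in ASC, so both marks met at 6 genes in ASC and 1 in QSC, against 9.91% and 5.09% of all genes, and at 1 gene in each state with lists of equal covered bases, against 1.73% in ASC and 5.09% in QSC. With peaks of a q of at most 0.05, a setting chosen after seeing the data, 2 genes were called in each state, Igf2 and Igfbp2, against 15.9% of genes in ASC and 9.35% in QSC. Both marks then met at 2 genes in ASC and 1 in QSC, against 6.45% and 2.61%.

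Over the record plus 10 kb either side, 8 of 10 genes had more bases under broad H3K27me3 peaks in ASC than in QSC, against 42.5% of all genes. Igfbp3 and Igfbp6 had fewer in ASC, against 33.5%. These shares, from 9305 and 7335 genes, are of all 21887 genes, including those with equal bases in both states. Each of the 10 IGF genes differed, so the bases of the comparison are unlike. The count of 8 was 3 when peaks with a q above 0.05 were left out, against 25.5% of all genes, and 4 in the narrow lists, against 35.2%. Flanks of 20 kb turned the sign at Igf1 and Igf1r. At least 1 broad peak touched the window of 9 genes in ASC and 10 in QSC, against 70.4% and 72.1% of all genes, and at least 1 narrow peak that of 5 genes in ASC and 3 in QSC, against 41.2% and 34.3%. The median covered share was 12.8% in ASC and 3.19% in QSC for the IGF genes, and 10.2% and 9.01% for all genes.

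**Figure D4:**
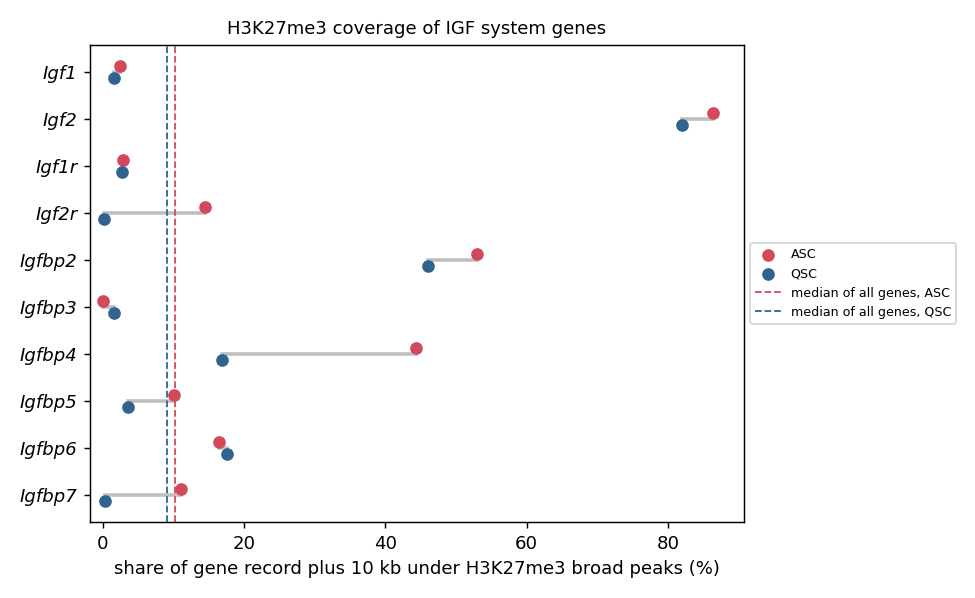
Share of each gene record plus 10 kb either side lying under H3K27me3 broad peaks, in percent on the horizontal axis, in ASC and QSC, with medians of all genes as dashed lines (10.2% in ASC and 9.01% in QSC). Igf2 and Igfbp2 stand high in both states. Igfbp4 shows the widest gap, with 44.4% in ASC and 16.9% in QSC, all under peaks with a q above 0.05.

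H3K4me3 was set beside the CpG content of the starts. The 17492 genes with a start in the promoter table were split by the CpG ratio of their most CpG-rich start, at 0.4 and 0.75. Igf1 was the single IGF gene in the low class of 6464 genes, of which 9.79% carried H3K4me3 in ASC and 8.52% in QSC, and it carried the mark in both. Igfbp2, Igfbp4, Igfbp5 and Igfbp6 were in the middle class of 4616 genes, of which 72.8% were marked in ASC and 69.0% in QSC, with 5.16% marked in ASC and not in QSC. Igf1r, Igf2, Igf2r, Igfbp3 and Igfbp7 were in the high class of 6412 genes, of which 95.0% were marked in ASC and 92.5% in QSC. H3K27me3 calls, which accept broad peaks of any q, ran the other way over these genes. They were made at 35.4%, 32.3% and 17.0% of the low, middle and high classes in ASC and at 29.4%, 26.7% and 12.8% in QSC. The split was not made with a q of at most 0.05. In ASC H3K27me3 was called at all 4 IGF genes of the middle class, at Igf2 and Igfbp7 in the high class, and not at Igf1. With a q of at most 0.05, only the calls at Igf2 and Igfbp2 remained.

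**Figure D5:**
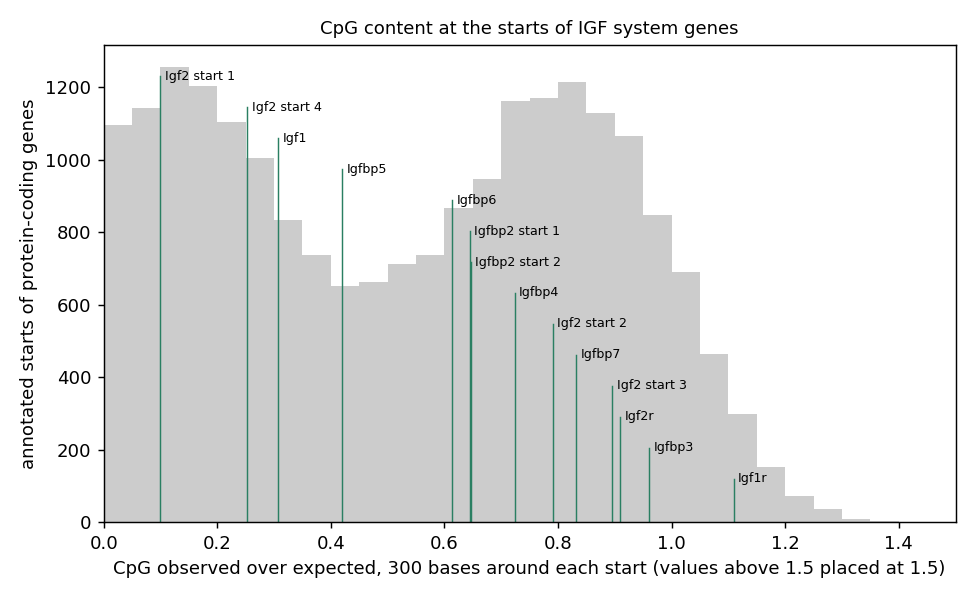
CpG observed over expected in 300 bases around each annotated start (horizontal axis), with the number of starts of all protein-coding genes as grey bars and each start of an IGF gene as a green line whose height only separates the labels. Igf1 lies at 0.31, in the lower of the main groups of starts, and Igf1r at 1.11, near the upper limit.

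Of 50 other genes of the IGF pathway, a list written from general knowledge, 44 had H3K4me3 at a start in ASC and 41 in QSC, against 57.0% and 54.4% of all genes. Among genes of the intracellular route, Irs1 and Irs2, the docking proteins below the receptor, carried domains of 10456 and 10118 bp in ASC and 9667 and 9045 bp in QSC. The genes of the list called in ASC and not in QSC were Insrr (insulin receptor-related receptor, fold 3.43), Stc1 (an inhibitor of the Pappa protease, 3.05) and Igf2bp3 (an mRNA-binding protein, 4.33). All 3 lay under H3K27me3 in both states. The liver-type partners Igfbp1 and Igfals had no H3K4me3 in either state.

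H3K27me3 was called at 13 of the 50 genes in ASC and 12 in QSC, against 30.0% and 24.9% of all genes, shares close to the list's own. With a q of at most 0.05 the counts were 10 in ASC and 8 in QSC, against 15.9% and 9.35%. Htra1 and Htra3, serine proteases of a family that cleaves binding proteins, were called in ASC and not in QSC under either rule. At Htra3 the H3K4me3 domain measured 2285 bp in ASC and 11373 bp in QSC, and H3K27me3 covered 22.6% of its record and flanks in ASC and 0% in QSC. At Htra1 H3K27me3 covered 48.9% in ASC and 7.93% in QSC, while the H3K4me3 domain measured 2866 bp in ASC and 2040 bp in QSC. The kinase gene Pdpk1 was called in QSC and not in ASC with all peaks (fold 1.72), and in neither state with a q of at most 0.05. Of the 41 genes marked in both states, 39 had the longer H3K4me3 domain in ASC, against 90.8% of all genes, with Htra3 and Rheb the exceptions, and the median log2 ratio was 0.38 against 0.54 for all genes. Among the mRNA-binding proteins, Igf2bp1 had H3K27me3 and no H3K4me3 in either state, and Igf2bp2 had both marks in both.

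Likeness was measured as the distance over 4 values, the H3K4me3 domain length and the H3K27me3 share in each state. The genes nearest to Igfbp4 were Vtn, Sarm1 and Cbfa2t3, at distances of 0.17, 0.18 and 0.18, and Vtn and Sarm1 share an H3K4me3 domain length of 2089 bp in ASC and 3246 bp in QSC. The genes nearest to Igfbp7 were Fmn2, Borcs5 and Os9, at 0.071, 0.082 and 0.087. These are descriptions of 4 values per gene with no test.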

How the data were processed

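The 8 deposited peak lists (narrow and broad, by mark and state) were used unchanged. Replicates 1 and 2 of a group carry the same list names in the labels, so a list was taken as pooled. Per the labels' protocols, libraries were made by ChIPmentation. Per the submitters' processing notes, the tools included Bowtie2 2.3.2, MACS2 2.1.1 and bedtools 2.26.0, with build mm10, without their settings. The deposited values used are a peak's fold enrichment, which is a ratio, and its q-value as -log10. Broad peaks are mostly weak, with a median -log10 q for H3K27me3 of 0.38 in ASC and 0.42 in QSC. For broad H3K4me3 peaks the median was 0.76 in ASC and 0 in QSC. Read depth is unknown, and counting intervals were therefore not computed.

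From these lists, coverage and calls were computed with Python 3.11.15 and pandas 2.3.3, and the calling code was tested on simulated data. Starts and strands came from the RefSeq promoter table for 17492 of 21887 genes, and for the other 4395 both record ends were used. H3K4me3 domains were narrow peaks joined over gaps of up to 1 kb. The genes named are the IGF genes, pathway genes whose call differs between states with examples by role, neighbours with a record end in a given peak, and the nearest genes by the distance above, in which lengths entered as log2(1 + kb) and shares as fractions. The genes and lists were chosen with earlier results of these data known. Alternatives covered peak thresholds, list length, list type, windows, overlaps, joining gaps and record ends. Signal tracks were not used here.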

Additional observations from a re-analysis of the deposited data

How the results depend on the processing

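No paired analysis was possible because the replicates of a group share 1 deposited list with no values per replicate, and for the same reason no replicate could be left out. Depth per library is unknown, and a peak's end depends on where calling stopped it. As reported, H3K27me3 was called at 6 genes in ASC and 3 in QSC, both marks met at 6 and 1, H3K4me3 was called at 10 and 8, 8 genes had more H3K27me3 bases in ASC, and the median log2 domain ratio was 0.08. Counts are taken as moved when they differ by over 1.5 times, and the cause was not tested. With a -log10 q of at least 5 the H3K27me3 counts were 1 in ASC and 0 in QSC, both marks met at 1 and 0, and 2 genes had more bases in ASC. With a fold of at least 3 the H3K27me3 counts were 1 in each state, both marks met at 1 gene in ASC, and 2 genes had more bases in ASC. With a q of at most 0.05, chosen after seeing the data, H3K27me3 and both marks each came to 2 in ASC, and 3 genes had more bases in ASC. With the lists shortened to equal covered bases H3K4me3 was called at 3 genes in ASC and both marks met at 1. With the other list of each mark the H3K27me3 counts were 2 in ASC and 1 in QSC, against 13.7% and 7.93% of all genes. Both marks then met at 2 genes in ASC. More H3K27me3 bases in ASC were found at 4 genes, against 35.2% of all genes, and the median log2 domain ratio was 0.26. Both marks in QSC came to 2 with windows of 2.5 kb and to 0 with both ends of the gene record. The median ratio was 0.18 with a joining gap of 3 kb. Shares of all genes were not computed for the strictest q cutoff, the fold cutoff, the wider windows or the record ends. They are also lacking for both marks with the other lists. Those counts therefore cannot be set against other genes. Signs turned at few genes. The Igf1r log2 domain ratio was -0.39 and its ASC minus QSC difference in H3K27me3 bases -553 with the other lists, and with flanks of 20 kb that difference was -2046 at Igf1r and -2551 at Igf1. The Igfbp6 difference was 879 with equal numbers of peaks, and the Igf2 log2 ratio was 0.53 with a joining gap of 3 kb, where its ASC peaks are joined. Of the other values for single genes under alternatives, 80 were unchanged or moved by at most 1.5 times. Another 61 moved by more, with the same sign or to 0. The 80 include the domain ratios with windows of 500 bp and 2.5 kb, all of which stayed the same. Domain ratios lost with a call are in neither count. With equal covered bases these were the ratios of Igf1, Igf2, Igf2r, Igfbp4 and Igfbp7.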

Other observations

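Short motifs were searched on both strands in the 300 bases around the 14 annotated starts of the IGF genes. The E-box CANNTG, bound by myogenic bHLH factors, was present at 10 of these 14 starts, against 69.0% of all 21263 starts of protein-coding genes. Its special form CACGTG, which is counted within CANNTG, was present at 2 starts, of Igf2r and Igfbp2, against 7.84%. The TATA sequence TATAAA was present at 2 starts, of Igfbp4 and Igfbp6, against 12.6%, and the GC box GGGCGG at 6 starts, against 46.2%. A match is a description of the letters and not a binding site.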
